A study of Mus musculus and Mus spretus with 72 samples.

Results

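Brain RNA of the ssp group was compared with brain RNA of domesticus and of musculus on 18 of the 72 arrays of the study: the 6 brain arrays titled ssp, the 6 titled dom and the 6 titled mus. The members were taken from the array titles, adjacent duplicate spots were averaged and every array was centred on its median. The dom group is Mus musculus domesticus and the mus group Mus musculus musculus; the ssp group is Mus musculus of a sub-species that the labels do not name, so it is called ssp here. All animals were males of about 12 weeks, untreated as far as the labels say, and the labels give neither inbred strain nor locality. Each array set RNA of 1 brain against a pool of brain RNA from 9 C57BL6 mice, a laboratory strain, and this pool is shared by every group. The labels name whole brain without regions or cell types.

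House mouse sub-species separated recently and still exchange genes where their ranges meet, so their brains share cell types and nearly all genes, and differences between them are differences in amount or in sequence. A spotted probe designed on one laboratory strain measures both: RNA that is more abundant gives a brighter spot, and RNA whose sequence departs from the probe gives a dimmer one. The differences given here are therefore differences in hybridisation signal, and in bulk tissue fewer cells of a type and less RNA per cell cannot be told apart. Because the values are ratios to brain RNA, they carry no level of a gene, and the labelled tissue could not be checked against the level of its defining markers.

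Before the results, 2 features of the arrays need stating. Array 8 of mus has mus in its title and domesticus in its channel label. Its centred log ratios correlated with those of the other 5 mus arrays at a mean r of 0.190 (0.133 to 0.278) and with the 6 dom arrays at a mean r of 0.0380 (-0.0390 to 0.0956), while the other mus arrays correlated among themselves at a mean r of 0.282 over 10 pairs. It was kept in mus. Without it the called probes fell from 35 to 12 for ssp against the mean of dom and mus, from 22 to 11 against dom, from 22 to 9 against mus and from 85 to 18 between mus and dom, and the tissue difference kept its count of 0. The spots without a value fall into shared patterns that divide the 18 arrays into a first set, with all 6 dom, mus arrays 2, 3, 4 and 8 and ssp arrays 1, 2 and 3, and a second set, with mus arrays 5 and 7 and ssp arrays 4, 5 and 6. Patterns correlated at 0.440 to 0.705 within a set and at 0.0132 to 0.0307 between sets. The labels do not say what the sets are, and they are called array sets 1 and 2 here.

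Each of the 18 arrays had values on 42947 to 44341 of its spots, and 21510 probes had at least 2 values in each group and were tested. A difference is the mean of the 6 ssp arrays minus the average of the dom mean and the mus mean, on the log2 scale, with its standard error (SE) from limma, a linear model fitted to all probes; a probe was called at a Benjamini-Hochberg adjusted p under 0.05. The median SE over probes was 0.08. Positive differences are taken as higher RNA signal in ssp, which assumes that the deposited ratio is sample over pool. That direction is likely but not stated, and if it were inverted all signs would turn together.

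The 2 globin chains of adult haemoglobin, a neuronal GABA receptor subunit, a ferritin receptor, a macrophage folate receptor and a small subunit of the respiratory chain stood higher in ssp brain, and a teneurin, drebrin and involucrin stood lower. Of these only the GABA receptor subunit stayed called with the array set as a fixed block, and the calls of the others also depended on single arrays, as given below. In all, 35 of the 21510 probes (0.163%) were called, 30 higher (0.139%) and 5 lower (0.0232%), while 2814 probes (13.1%) had an unadjusted p under 0.05. The called differences were modest in size: the higher ones ran from 0.24 to 0.93 and the lower ones from -0.86 to -0.28. Of the 35 probes, 21 carried a single usable gene symbol and are described one by one or in groups below; the other 14 were RIKEN clones, gene models or probes that the annotation given here does not name, among them both ends of that range. In 13 of the 35 probes the ssp arrays did not overlap with any dom or mus array, 11 above and 2 below. Over all tested probes 22 (0.102%) lay wholly above and 16 (0.0744%) wholly below. Arrays without a value do not enter these counts, and among the 11 is Crtam, with values on 3 ssp and 4 mus arrays alone.

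**Figure D1:**
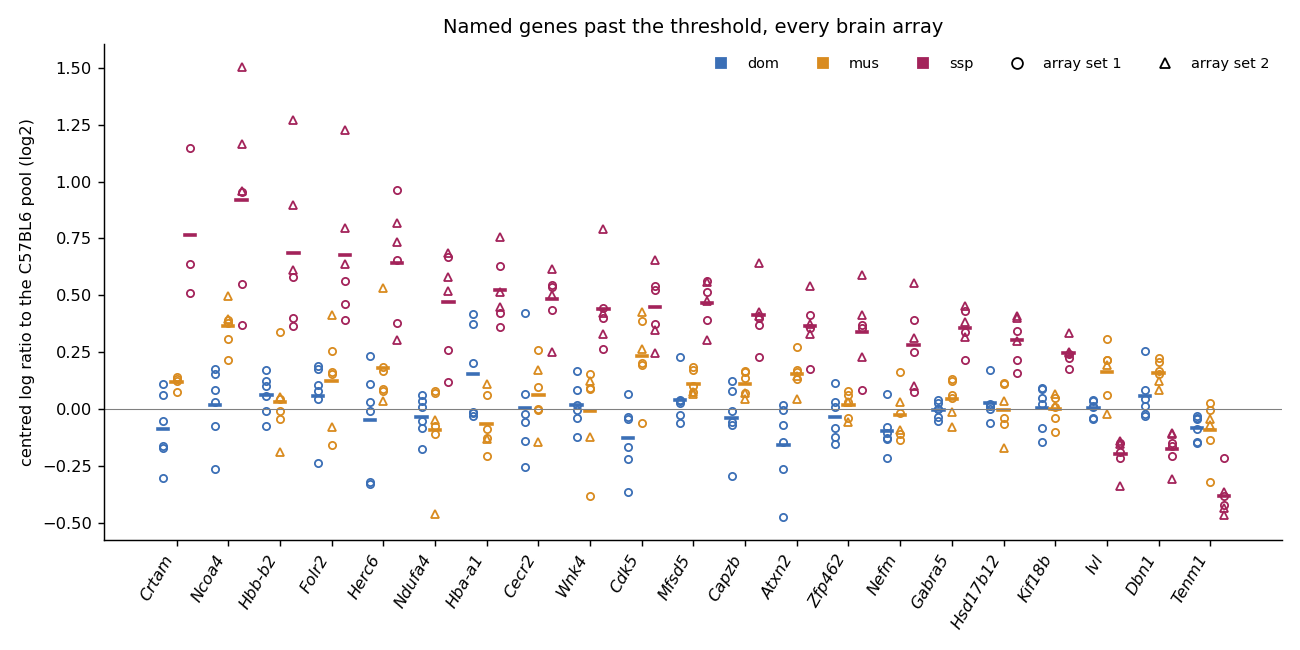
Every brain array for the 21 named genes past the threshold, as median-centred log2 ratio to the C57BL6 pool; blue is dom, orange mus and magenta ssp, circles are array set 1 and triangles array set 2, and short bars are group means. The 3 genes at the right are lower in ssp, the others higher, and Crtam has ssp values in array set 1 alone.

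Haemoglobin carries oxygen in red cells and is built from alpha and beta globin chains. On the Hbb-b2 probe, a beta chain, the 6 ssp arrays read 0.40, 0.58, 0.37, 0.90, 1.27 and 0.61. The dom arrays lay between -0.07 and 0.17 and the mus arrays between -0.19 and 0.34, so every ssp array was above every dom and mus array. The difference was 0.64 ± 0.11 (SE; limma, adjusted p = 0.0213), a ratio of 1.56. On the Hba-a1 probe, an alpha chain, the ssp arrays read 0.42, 0.63, 0.36, 0.45, 0.76 and 0.51, against -0.03 to 0.42 in dom and -0.21 to 0.11 in mus. Here ssp array 3, the lowest, lay within the range of the dom arrays, the other ssp arrays lay above it, and the difference was 0.48 ± 0.08 (adjusted p = 0.0213).

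For the beta chain the excess over dom (0.63 ± 0.12, adjusted p = 0.0514) and over mus (0.66 ± 0.12, adjusted p = 0.0380) had nearly the same size, though only the second passed in limma. For the alpha chain the excess over mus was 0.59 ± 0.09 (adjusted p = 0.0305) and that over dom 0.37 ± 0.09 (adjusted p = 0.136, not called). The array sets moved with the beta chain: its ssp mean was 0.45 in array set 1 and 0.93 in array set 2, against 0.47 and 0.57 for the alpha chain. Within array set 1 alone the differences were 0.38 and 0.44, and within array set 2, ssp minus mus, 0.99 and 0.58. None of these within-set values was called.

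The remaining red cell markers did not move with the globins. Alas2, the first enzyme of haem synthesis in red cell precursors, differed by -0.21 ± 0.11, Slc4a1, the anion exchanger of the red cell membrane, by -0.05 ± 0.06, and Epb42, a membrane skeleton protein, by 0.03 ± 0.09, none of them called (limma, adjusted p = 0.397, 0.726 and 0.919). Of the 11 listed red cell genes 5 were measured, and 2 of the 5, the globins, were called. Over all tested probes 0.163% were called, a share to set beside this and each later list. The mean over the 5 probes, which include the 2 globins, lay between 0.04 and 0.39 on the ssp arrays, between -0.05 and 0.19 on dom and between -0.10 and 0.08 on mus. The median difference of the 5 probes was 0.03. The probes for embryonic globins showed no called difference: Hbb-y, an embryonic beta-like chain, read 0.14 ± 0.06 and Hbb-bh1, another, -0.02 ± 0.07 (adjusted p = 0.350 and 0.934). Adult globin genes occur in nearly identical copies, and C57BL6 carries a beta cluster haplotype whose adult genes are named Hbb-bs and Hbb-bt, so the probes named Hbb-b2 and Hba-a1 cannot be assigned to 1 copy.

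The promoters of the adult globin genes of the reference strain are shown because the probes of both chains stood higher together on the ssp arrays. The sequences come from RefSeq (GRCm38.p6) and run from 250 bases before the transcription start to the base before it, 5′ to 3′ along the gene; capitals mark, on either strand, the CCAAT box, the CACCC box, the GATA factor motif GATAA and the TATA box motif TATAA. Hba-a1 lies on the plus strand at chr11:32283422-32283671, Hbb-bs on the minus strand at chr7:103827929-103828178 and Hbb-bt on the minus strand at chr7:103813924-103814173.
Hba-a1: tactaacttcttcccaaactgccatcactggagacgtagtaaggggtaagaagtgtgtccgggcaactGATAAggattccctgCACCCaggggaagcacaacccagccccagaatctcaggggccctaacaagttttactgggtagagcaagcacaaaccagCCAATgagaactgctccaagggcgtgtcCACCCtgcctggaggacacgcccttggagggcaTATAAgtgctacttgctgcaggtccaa
Hbb-bs: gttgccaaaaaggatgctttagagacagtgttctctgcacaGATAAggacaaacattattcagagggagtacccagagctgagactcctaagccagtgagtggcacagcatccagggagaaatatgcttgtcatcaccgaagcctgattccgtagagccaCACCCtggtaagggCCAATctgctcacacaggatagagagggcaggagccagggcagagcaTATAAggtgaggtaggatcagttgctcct
Hbb-bt: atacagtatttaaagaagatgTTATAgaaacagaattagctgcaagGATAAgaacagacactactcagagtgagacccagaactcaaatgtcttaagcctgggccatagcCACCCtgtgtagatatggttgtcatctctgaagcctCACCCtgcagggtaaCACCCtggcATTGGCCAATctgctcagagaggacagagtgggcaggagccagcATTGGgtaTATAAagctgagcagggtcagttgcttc

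Each of the 3 windows holds all 4 motifs. CCAAT, the box bound by NF-Y, starts 88 bases before the start of Hba-a1 and 76 before that of Hbb-bs, and CACCC, the box bound by erythroid KLF factors, 60 and 90 bases before. The TATA box, TATAA, starts 27, 29 and 28 bases before the start in Hba-a1, Hbb-bs and Hbb-bt. Among 32851 promoter windows of 250 bases, 33.9% held the letters CCAAT on either strand, 52.0% held the letters CACCC, 22.6% the letters GATAA and 22.8% the letters TATAA, and 318 windows (0.968%) held all of them. No matches overlap in the windows shown. These matches describe the reference sequence of C57BL6, not that of the mice on the arrays.

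**Figure D2:**
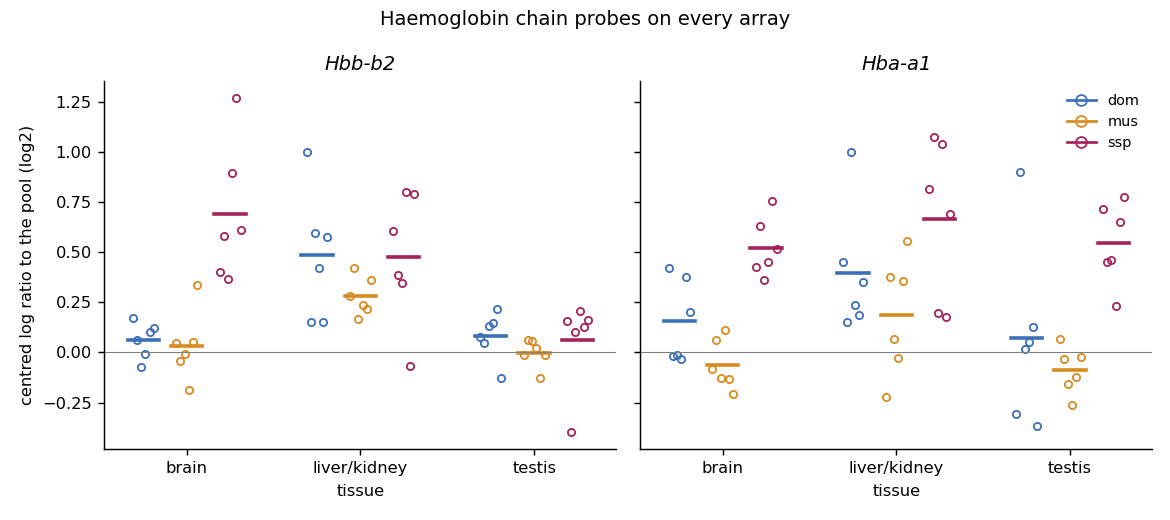
Hbb-b2 and Hba-a1 on every dom (blue), mus (orange) and ssp (magenta) array of 3 tissues, as centred log2 ratio to the pool of the same tissue; bars are group means. The beta chain separates ssp in brain, while the alpha chain has its highest mean in ssp in each tissue.

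In the other organs of the study the 2 chains read differently. The liver/kidney arrays of these groups all belong to array set 1, while the brain arrays span array sets 1 and 2. The same contrast on liver/kidney arrays was 0.09 for Hbb-b2 and 0.38 for Hba-a1, and on testis arrays 0.02 and 0.56; neither chain was called there in limma (adjusted p = 0.728 and 0.203 in liver/kidney, 0.967 and 0.281 in testis). Taken per animal number, the brain contrast minus the mean of the other tissues was 0.58 ± 0.14 for Hbb-b2 (adjusted p = 0.337) and 0.01 ± 0.14 for Hba-a1 (adjusted p = 0.987), so a difference between tissues was called for neither.

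Gabra5 encodes the alpha 5 subunit of the GABA-A receptor, the chloride channel that mediates fast inhibition, and is known mainly from the hippocampus. Its ssp arrays read 0.34, 0.43, 0.22, 0.32, 0.45 and 0.38, the dom arrays lay within -0.05 to 0.04 and the mus arrays within -0.08 to 0.13. All ssp arrays were above all others, and the SD of the dom group was 0.04 (n = 6). The difference was 0.33 ± 0.05 (limma, adjusted p = 0.0116), a ratio of 1.26, and it was called against dom alone (0.36 ± 0.06, adjusted p = 0.0105) and against mus alone (0.31 ± 0.06, adjusted p = 0.0310). The ssp means in array sets 1 and 2 were 0.33 and 0.38. With the array set as a block the difference was 0.35 ± 0.05 and still called (adjusted p = 0.0242), but with quantile normalisation it was 0.29 and not called (adjusted p = 0.0668). Its duplicate spots differed: the first spot alone gave 0.19 (adjusted p = 0.463) and the second 0.47 (adjusted p = 0.0722), neither called.

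No other probe for a GABA-A receptor subunit was called. Of the 12 probes for 9 measured subunit genes, Gabra5 alone passed, and their median difference was 0.06 against -0.01 over all probes. Gabrb1, a beta subunit, read 0.18 ± 0.07 (adjusted p = 0.275), Gabra2 0.11 ± 0.06 and 0.12 ± 0.10 on its probes, and the 3 probes of Gabrb2, the most widespread beta subunit, -0.09, -0.10 and 0.07. The difference for Gabra5 was -0.01 in liver/kidney and -0.04 in testis, where neither was called; brain minus the other tissues was 0.36 ± 0.07 (adjusted p = 0.291, not called).

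Mfsd5, a membrane protein of the major facilitator superfamily linked to molybdate uptake, had the smallest p of all probes. The ssp arrays read 0.51, 0.57, 0.39, 0.30, 0.56 and 0.48, the dom arrays -0.06 to 0.23 and the mus arrays 0.07 to 0.19, without overlap. The difference was 0.39 ± 0.05 (limma, adjusted p = 0.0109) and was called against dom (0.43 ± 0.06) and against mus (0.35 ± 0.06) separately. In liver/kidney the same contrast was 0.49 and called as well (adjusted p = 0.0229), though ssp and mus arrays overlapped there. In testis the contrast was 0.11 and not called. The brain call was lost with quantile normalisation (0.38, adjusted p = 0.0867) and with the second spot alone (0.32, adjusted p = 0.107).

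Ncoa4 is the receptor that delivers ferritin to lysosomes and so releases stored iron. The ssp arrays read 0.37, 0.55, 0.96, 0.96, 1.50 and 1.16, the dom arrays -0.26 to 0.18 and the mus arrays 0.21 to 0.50, so that ssp array 1 fell inside the mus range. The difference was 0.73 ± 0.12 (limma, adjusted p = 0.0213), made up of 0.90 ± 0.14 against dom (adjusted p = 0.0105) and 0.55 ± 0.14 against mus (adjusted p = 0.120, not called). Its ssp mean was 0.63 in array set 1 and 1.21 in array set 2 against 0.32 and 0.45 for mus. With the array set as a block the difference was 0.60 ± 0.11 and no longer called (adjusted p = 0.0671).

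None of the 16 probes for haem synthesis and iron handling was called, and their median was -0.04. Hmox1, the inducible haem-degrading enzyme, had the largest value, 0.45 ± 0.11, without passing (limma, adjusted p = 0.126). Fth1, the ferritin heavy chain, read 0.35 ± 0.25, Ftl1, the light chain, -0.06 ± 0.07, and Tfrc, the transferrin receptor, 0.13 ± 0.07 and 0.07 ± 0.05. The transferrin probe, Trf, read -0.01 ± 0.08.

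Folr2, the folate receptor beta, is carried by macrophages that line brain vessels and meninges. The ssp arrays read 0.39, 0.57, 0.46, 0.64, 1.23 and 0.80, against -0.24 to 0.19 in dom and -0.16 to 0.42 in mus, where array 7 alone exceeded the lowest ssp array. The difference was 0.59 ± 0.11 (limma, adjusted p = 0.0330). It was also called in liver/kidney, at 0.42 (adjusted p = 0.00478), where every dom array lay below every mus array. The ssp mean was 0.47 in array set 1 and 0.89 in array set 2.

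The markers of the same macrophages did not follow. Of the 8 listed genes 5 were measured, and Folr2 was the only one called: Cd163, the haemoglobin-haptoglobin receptor, read -0.12 ± 0.05, Lyve1, a hyaluronan receptor, -0.25 ± 0.19, Mrc1, the mannose receptor, -0.01 ± 0.09, and Ms4a7 -0.00 ± 0.07. The mean over the 5 probes ran from -0.33 to 0.23 on ssp arrays, from -0.05 to 0.05 on dom and from -0.15 to 0.07 on mus. Among folate genes, Folr1, the receptor alpha of choroid plexus, read 0.11 ± 0.07 and Slc19a1, the reduced folate carrier, 0.17 ± 0.07, neither called (limma, adjusted p = 0.519 and 0.347). None of 6 microglial and none of 5 choroid plexus probes was called.

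Ndufa4, first described as a part of respiratory complex I and later assigned to complex IV, read 0.12, 0.26, 0.67, 0.52, 0.69 and 0.58 on the ssp arrays, -0.17 to 0.06 on dom and -0.46 to 0.08 on mus. The groups did not overlap, and the difference was 0.53 ± 0.09 (limma, adjusted p = 0.0213). It was -0.03 in liver/kidney and 0.17 in testis, neither called. Of 31 probes of complex I, the list that holds it, Ndufa4 alone was called and the median was 0.01. Next by p came Ndufb4, an accessory subunit, at -0.36 ± 0.12 (adjusted p = 0.233, not called).

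Respiratory complexes III to V had 39 probes with a median of 0.04, and 25 of them (64.1%) were above 0, against 47.3% of all tested probes. None was called. The mean over the 39 probes was 0.26 on ssp array 5, of array set 2, and 0.01 to 0.09 on the other ssp arrays. It was 0.01 to 0.09 on dom and 0.01 to 0.14 on mus arrays. The smallest p-values belonged to Atp5a1 and Atp5b, the catalytic core of the ATP synthase, at 0.26 ± 0.06 and 0.32 ± 0.08 (limma, adjusted p = 0.136 and 0.149). Cytosolic ribosomal proteins had 72 probes with a median of 0.08 and 65.3% above 0, again with none called. Rpl7, a protein of the large subunit, came nearest, at 0.27 ± 0.06 (adjusted p = 0.0684), with ssp arrays between 0.16 and 0.50, all above dom and mus. The mean over the ribosomal probes overlapped between groups, at 0.07 to 0.32 on ssp arrays, 0.06 to 0.20 on dom and -0.06 to 0.14 on mus. It moved with the array sets. Ssp arrays 1, 2 and 3 of set 1 read 0.07, 0.07 and 0.12, within the dom range, and ssp arrays 4, 5 and 6 of set 2 read 0.19, 0.32 and 0.23. Mus arrays 5 and 7 of set 2 read 0.14 and 0.13, above the other mus arrays. Within array set 1 the median difference of the ribosomal probes was 0.03.

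Of 7 probes for neuron markers 1 was called, that of Nefm. Nefm, the medium neurofilament chain of axons, read 0.08, 0.39, 0.25, 0.56, 0.10 and 0.31 in ssp, against -0.21 to 0.07 in dom and -0.13 to 0.16 in mus. The difference was 0.34 ± 0.07 (limma, adjusted p = 0.0491), close to the threshold, and ssp arrays 1 and 5 fell within the mus range. Cdk5, a kinase active in postmitotic neurons that phosphorylates neurofilaments among other targets, differed by 0.39 ± 0.08 (adjusted p = 0.0484). It was called against dom (0.58 ± 0.09, adjusted p = 0.0117) and not against mus (0.21 ± 0.09, adjusted p = 0.336).

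Dbn1 encodes drebrin, an actin-binding protein of dendritic spines. Its ssp arrays lay between -0.31 and -0.10, its dom arrays between -0.03 and 0.26 and its mus arrays between 0.08 and 0.23, with no overlap. The difference was -0.28 ± 0.05 (limma, adjusted p = 0.0330). Tenm1, an X-linked teneurin, a cell adhesion protein that guides synaptic partner matching, read -0.46 to -0.21 in ssp, -0.15 to -0.03 in dom and -0.32 to 0.03 in mus. Its difference was -0.29 ± 0.06 (adjusted p = 0.0373), and it was called in liver/kidney too, at -0.23 (adjusted p = 0.0381), while in testis it was 0.08, of the opposite sign and not called (adjusted p = 0.837). Of the 11 teneurin and latrophilin probes Tenm1 alone was called; the Tenm4 probes read 0.13 and 0.12 and the 3 Tenm2 probes -0.07, -0.07 and -0.11.

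Apart from Nefm, the neuron markers showed no called difference. Tubb3, a tubulin of neurons, had the largest absolute value, -0.35 ± 0.19, opposite to Nefm, and Eno2, a neuronal enolase, read 0.17 ± 0.06 (limma, adjusted p = 0.438 and 0.273). Nefl, the light neurofilament chain, read 0.01 ± 0.08, Snap25, a synaptic fusion protein, 0.02 ± 0.10, and Stmn2, a microtubule regulator of growing axons, 0.01 ± 0.09, and Syt1, the calcium sensor of release, 0.01 ± 0.10. The mean over the 7 neuron probes was -0.02 to 0.17 on ssp arrays, 0.03 to 0.31 on dom and -0.09 to 0.22 on mus. No probe was called among the lists for astrocytes, oligodendrocytes, endothelium, meninges, pituitary, GABA interneurons, hypothalamic peptides, monoamine neurons, glutamate receptors or synaptic vesicles. The 8 probes for meninges and fibroblasts had a median of 0.10, with 75% above 0. Their mean was -0.01 to 0.20 on ssp arrays, -0.04 to 0.09 on dom and -0.07 to 0.08 on mus. The 11 synaptic vesicle probes had a median of 0.07, with 81.8% above 0. Their mean was -0.07 to 0.04 on ssp arrays, -0.13 to 0.02 on dom and -0.32 to -0.01 on mus. The largest absolute value for an astrocyte marker was that of Slc1a2, the main glutamate transporter, at -0.43 ± 0.14 (limma, adjusted p = 0.252). The lists for immediate early genes, chaperones, the clock, interferon response, antioxidants, the proteasome and mitochondrial ribosomal proteins had no called member either. At the share called over all tested probes, 0.163%, lists of these sizes would hold few or no calls.

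**Figure D3:**
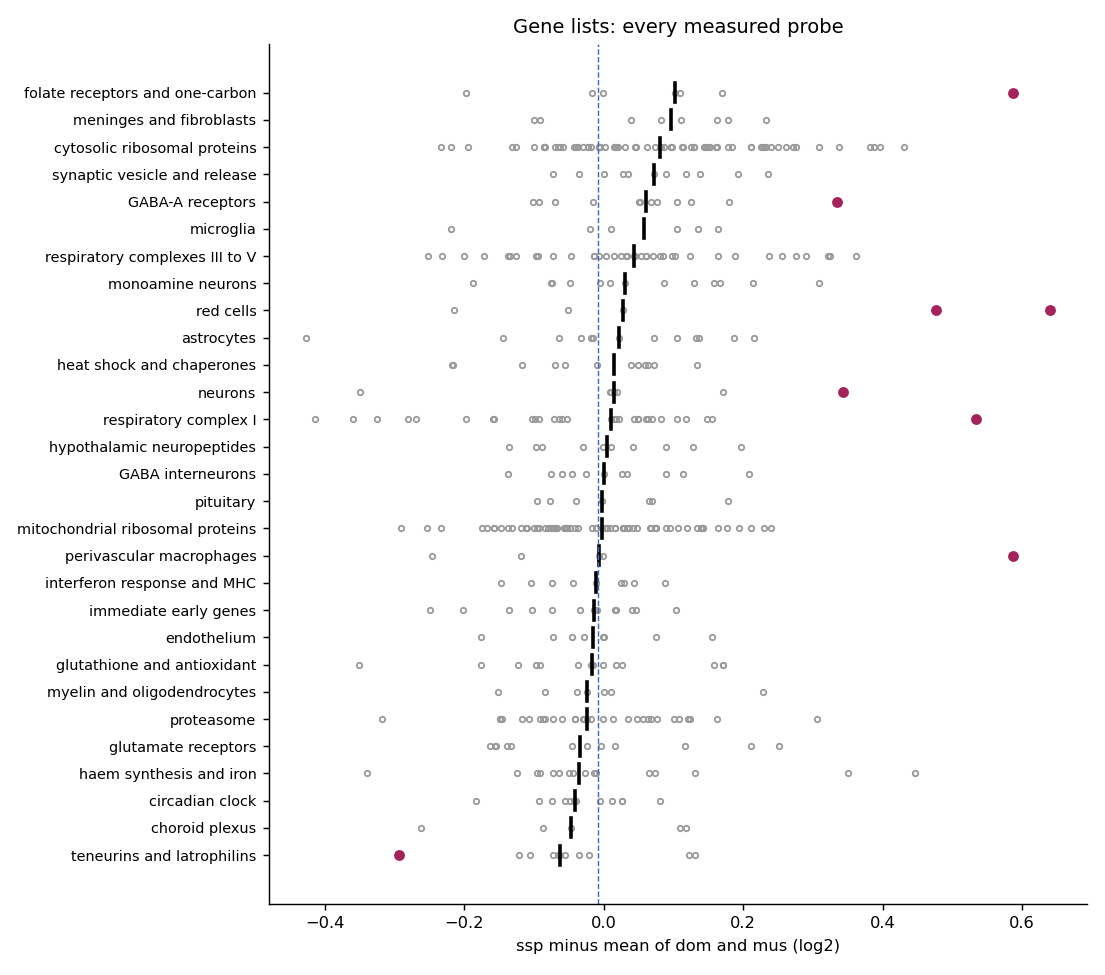
Differences (log2, ssp minus the mean of dom and mus) of every measured probe in the 29 gene lists, sorted by list median. Filled magenta points are called probes, open grey points are not, black ticks are list medians and the dashed line is the median over all tested probes, -0.01; a called probe is a single point in each list that has any, apart from red cells with 2.

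The other named genes higher in ssp had varied roles. Herc6, a HECT-type ubiquitin ligase induced by interferon, read 0.30 to 0.96 in ssp against -0.33 to 0.23 in dom and 0.04 to 0.53 in mus, where array 7 lay inside the ssp range, a difference of 0.57 ± 0.10 (limma, adjusted p = 0.0330); none of the 9 probes of the interferon list, which does not hold it, was called. Wnk4, a kinase that controls sodium chloride transport in kidney, differed by 0.44 ± 0.08 and Capzb, the beta subunit of the protein that caps actin filaments, by 0.38 ± 0.06 (adjusted p = 0.0373 and 0.0213), and in both all ssp arrays were above all others. Kif18b, a kinesin of the mitotic spindle, did not overlap either, at 0.24 ± 0.05 (adjusted p = 0.0484), with a second probe at 0.16 ± 0.09 that was not called. Zfp462, a zinc finger protein, Atxn2, an RNA-binding protein, and Hsd17b12, an enzyme of fatty acid elongation, had differences of 0.35 ± 0.06, 0.37 ± 0.07 and 0.29 ± 0.06, with some overlap of arrays.

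For 2 of the called genes a limit belongs beside the value. Crtam, an adhesion molecule of activated T and NK cells, had the largest named difference, 0.75 ± 0.12 (limma, adjusted p = 0.0234), from ssp arrays 1, 2 and 3 at 0.51, 1.15 and 0.64; the arrays of set 2 had no value, so the fit used 3 ssp, 4 mus and 6 dom arrays, and its difference ran from 0.47 to 1.27 over the alternatives. Cecr2, a bromodomain protein of chromatin remodelling needed for neural tube closure, differed by 0.45 ± 0.08 (adjusted p = 0.0373) on one probe and by -0.10 ± 0.07 (adjusted p = 0.529) on another. Averaged over its probes the Cecr2 difference was 0.17 (adjusted p = 0.301), and the call of the first probe was lost in 7 of 13 alternatives and held in 4 of 18 runs that left out 1 array. That probe was called in liver/kidney too, at 0.52 (adjusted p = 0.0456), where every dom array lay below every mus array.

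Ivl, the involucrin gene of the skin's cornified envelope, was lower on all ssp arrays (-0.34 to -0.14) than on any dom (-0.04 to 0.04) or mus array (-0.02 to 0.31), a difference of -0.28 ± 0.05 (limma, adjusted p = 0.0373). Next in order of p came 3 genes that did not pass: Pelp1, a nuclear receptor coregulator, at -0.40 ± 0.08 (adjusted p = 0.0632), Rpl7, given above, and Aox4, an aldehyde oxidase, at -0.35 ± 0.07 (adjusted p = 0.0710).

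Set against each group alone, ssp had 22 called probes versus dom (0.102%), 19 higher (0.0883%) and 3 lower (0.0139%), and 22 versus mus (0.102%), 10 higher (0.0465%) and 12 lower (0.0558%). These comparisons share the ssp arrays. The largest called difference against dom was on a probe of Gpc6, a glypican of the cell surface, whose ssp arrays read 1.24, 0.18, 2.19, 1.95, 3.87 and 2.29. The dom arrays lay between -0.73 and 0.29 and the mus arrays between 0.48 and 1.50, so that 5 of the 6 ssp arrays were above every dom array. The difference was 2.17 ± 0.39 against dom (limma, adjusted p = 0.0350) and 1.00 ± 0.39 against mus (adjusted p = 0.288, not called), and a second Gpc6 probe gave -0.04 ± 0.14 against dom. The call held in 6 of 18 runs that left out 1 array and was lost in 6 of 13 alternatives, with differences down to 1.07.

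For 3 other genes called against a single group, Dscaml1, Icam1 and Psmg4, that group was also called against the third group, while ssp and the third group were not called apart. Dscaml1, a cell adhesion molecule of neurons, was lower in ssp than in dom by -1.32 ± 0.26 (limma, adjusted p = 0.0475), with dom arrays from 0.09 to 2.23 and both ssp (-0.34 to 0.18) and mus (-0.21 to 0.16) near the pool; its second probe read -0.20 ± 0.08 and was not called. The call held in 3 of 18 runs that left out 1 array and was lost in 8 of 13 alternatives, and averaged over its probes the difference was -0.75. Icam1, an adhesion molecule for leukocytes on endothelium, was higher in ssp than in mus by 0.81 ± 0.14 (adjusted p = 0.0305), with mus arrays from -0.98 to -0.33 and dom arrays from -0.23 to 0.09. Psmg4, a proteasome assembly chaperone, was lower than in mus by -0.64 ± 0.10, Pelp1 by -0.56 ± 0.10 and Tceal6, of a family related to an elongation factor, by -0.53 ± 0.09 (adjusted p = 0.0305, 0.0310 and 0.0305). For Psmg4 ssp and dom had means of -0.14 and -0.15, and mus 0.50; for Pelp1 ssp lay at -0.33, dom at -0.09 and mus at 0.23, and mus and dom were not called apart (adjusted p = 0.141); a second Tceal6 probe read -0.00 ± 0.11 against mus.

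**Figure D4:**
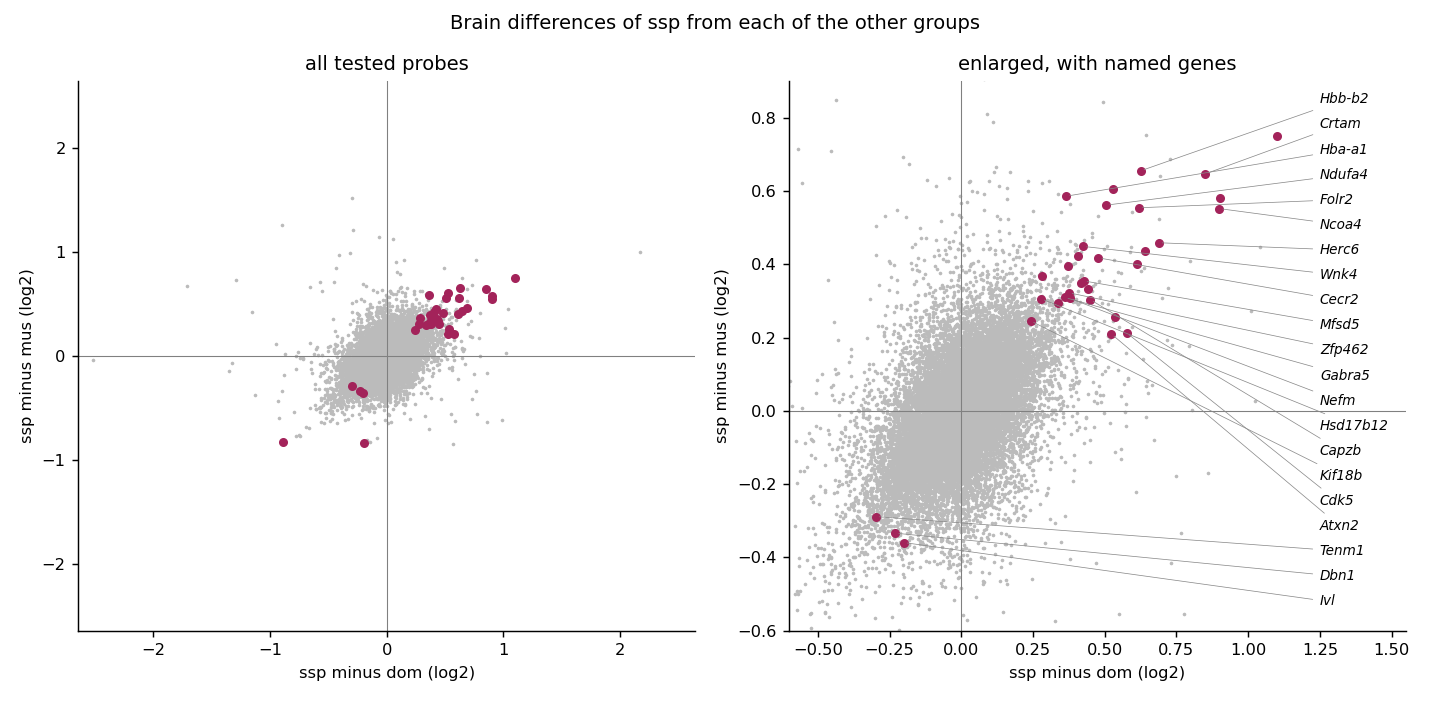
Each tested probe by its log2 difference of ssp from dom (horizontal) and from mus (vertical), with called probes of the main contrast in magenta; the right panel enlarges the centre and names genes. Cdk5 and Atxn2 lie farther from dom than from mus, while Hba-a1 lies farther from mus; both axes use the same ssp arrays.

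For scale, mus and dom differed from each other at 85 probes (0.395%), 55 of them higher in mus. Of the main named genes none was called between mus and dom; Cdk5 and Atxn2 came nearest, at 0.36 and 0.31 (limma, adjusted p = 0.0752 and 0.0801). The cas and spretus brain arrays, 3 each, were not part of the contrast; all 3 spretus arrays and cas arrays 1 and 2 belong to array set 2, and cas array 3 to array set 3, which holds none of the 18 arrays. On them Hbb-b2 averaged 0.17 in cas and 0.62 ± 0.12 (SD, n = 3) in spretus, beside ssp means of 0.93 in array set 2 and 0.45 in array set 1. Dbn1 averaged -0.23 in cas and -0.26 in spretus, beside -0.17 in ssp. Ivl averaged -0.16 in cas and -0.13 in spretus, beside -0.20 in ssp, and all its spretus arrays lay below every dom and mus array. Nefm averaged 0.23 in cas and -0.05 in spretus, beside 0.28 in ssp. Gabra5 averaged 0.17 in cas and -0.05 in spretus, and Folr2 0.04 and -0.10, all below the ssp means in either set, without a test.

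Arrays of other organs with the same animal numbers gave a separate reading of the contrast. Of the 35 probes called in brain, 31 had the same sign in liver/kidney (88.6%), where 60.2% of all 21499 probes tested in both did. In liver/kidney 343 probes (1.60%) were called in the same contrast, and 5 of the 35 (14.3%) were among them, each in the direction seen in brain: Mfsd5, Folr2, Cecr2, Tenm1 and 1 probe without a gene name. There the dom arrays of Folr2 (-0.54 to -0.04) and Cecr2 (-0.48 to -0.15) lay below all mus arrays (0.07 to 0.26 and 0.01 to 0.47). Their ssp arrays, 0.11 to 0.51 and 0.03 to 1.30, overlapped with mus. For Mfsd5 ssp (0.21 to 0.55) overlapped with mus (-0.13 to 0.26), and dom read -0.78 to 0.02. For Tenm1 dom and mus overlapped. A contrast of ssp with mus alone was not tested in liver/kidney. In testis 27 of the 35 had the same sign, against 49.6% of all probes. No probe was called in testis (0 of 21526, with 1657, or 7.7%, at an unadjusted p under 0.05). These shares compare tissues whose arrays differ but whose animals may be the same.

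No probe was called for a difference between brain and the other tissues. In limma on 1 value per animal number 0 of 21496 were called, with 1795 (8.35%) at an unadjusted p under 0.05. The count was 1 when the first spot of each pair was used. The smallest adjusted p among the named genes was that of Gabra5, given above. A call in brain and none in another organ is therefore no shown difference between organs.

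The calls depended on single arrays and on the array sets. The 12 probes called without mus array 8, whose labels disagree, were all among the 35. Leaving out other single arrays gave between 6 called probes (without ssp array 6) and 55 (without ssp array 1), of which 5 and 28 were shared with the 35. The count was 41 without dom array 1, 31 without ssp array 2 and 25 without ssp array 4. It was 14, 16, 17, 10 and 17 without dom arrays 3, 5, 6, 10 and 13, it was 20, 21, 13, 20 and 21 without mus arrays 2, 3, 4, 5 and 7, and 16 and 10 without ssp arrays 3 and 5. Of the 35 probes, 3 were called in all 18 runs, namely Gabra5, Mfsd5 and 1 probe without a gene name; Ncoa4 and Hbb-b2 were called in 17, Hba-a1 and Capzb in 16, Ndufa4 in 15 and Crtam in 13. Folr2 was called in 8 of the runs, Wnk4 in 6, Tenm1, Nefm and Cdk5 in 3 and Kif18b in 1.

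**Figure D5:**
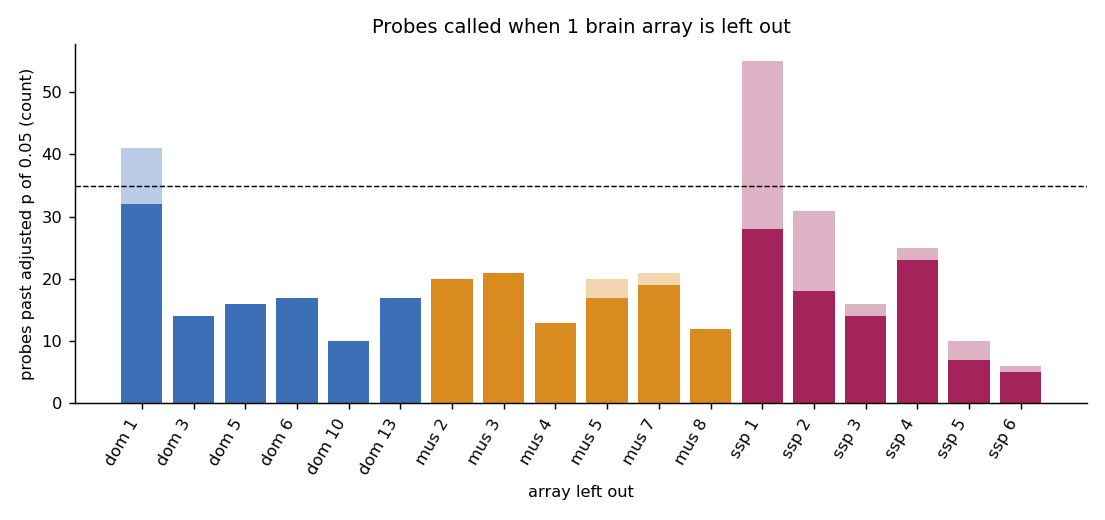
Probes past an adjusted p of 0.05 when the array on the horizontal axis is left out of the fit; the full bar is the count, the dark portion the probes shared with the 35 of all 18 arrays (dashed line). The count ranges from 6 without ssp array 6 to 55 without ssp array 1.

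Of the 21 named genes, 2 were still called with quantile normalisation (Hbb-b2 and Ncoa4), 5 with the first spot of each pair (those 2, Hba-a1, Mfsd5 and Crtam), 2 with the second spot (Ndufa4 and Tenm1) and 12 with array weights. Such weights give arrays with more scatter less influence. They were lowest on ssp arrays 4, 5 and 6 of array set 2, at 0.36, 0.44 and 0.44, against 0.65 to 2.34 on the other arrays. With the array set as a fixed block 4 of the 35 probes were called: Gabra5, Mfsd5, Crtam and 1 probe without a gene name. Crtam has no value in array set 2, so the block cannot adjust its difference; for probes with missing values the SE of this fit is approximate. The differences of the other genes kept their direction, at 0.58 ± 0.11 for Hbb-b2, 0.45 ± 0.09 for Hba-a1, 0.53 ± 0.10 for Ndufa4 and 0.50 ± 0.11 for Folr2 (limma, adjusted p = 0.0980, 0.0980, 0.0828 and 0.128). Within array set 1, with 3 ssp arrays against 4 mus and 6 dom, 1 probe (0.00465%) was called and it was not among the 35, while 2187 probes (10.2%) had an unadjusted p under 0.05. In the same set 3 probes (0.0139%) were called against mus alone and 0 against dom alone, where 2213 (10.3%) had an unadjusted p under 0.05. Within array set 2, ssp minus mus, 0 of 21195 probes were called and 651 (3.07%) had an unadjusted p under 0.05, with 3 arrays against 2.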

How the data were processed

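RNA was measured on arrays with 2 channels, per the labels: channel 1 held the C57BL6 pool and channel 2 the sample. The authors deposited 1 log ratio per spot, taken here as log2, a scale that the sources used here do not state. No source used here names their background correction or normalisation. Array titles gave the group and animal number. The members, gene lists and tests were chosen with earlier results of these data known.

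Adjacent duplicate spots (22320 pairs of 46128 spots, in rows of 31) were averaged, 1488 single spots were left out, and 232 pairs of a repeated Gapdh probe became 1 value, leaving 22089 probes. Duplicates correlated at a median r of 0.434 within an array. The probe table pairs 15801 probes with 1 gene symbol and 294 with several, and 5994 are unnamed here; the Entrez identifiers of 15601 were found in RefSeq (GRCm38.p6) and 0 symbols were updated. Arrays were centred on their median. Deposited medians lay between -0.0283 and 0.0246, values between -5.58 and 5.11, and array pairs correlated at -0.139 to 0.483 (153 pairs).

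Probes with at least 2 values in each group entered lmFit and eBayes of limma 3.58.1 (R 4.3.3, with data.table version 1.17.8), with 1 coefficient per group over the 18 arrays, two-sided and Benjamini-Hochberg adjusted over all probes. Nothing in the labels says whether RNA was extracted apart, so p-values measure the spread between these arrays, whose number limits the precision. The tissue difference used 1 value per animal number. The script was tested on simulated data. Tables were built with numpy 2.4.6 and pandas 2.3.3 under Python 3.11.15, and plots with matplotlib 3.10.9. Promoters were taken from RefSeq, where 17 of 24 named genes had an entry.

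Genes named are the 12 largest called differences in each direction, with unnamed probes, clones and gene models passed over, then up to 3 called members per list, then the smallest p up to 24 genes, and the 3 largest called in each direction against dom and against mus. A gene is given by its probe with the smallest p. Other list members were named after their values were seen.

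Animal numbers did not pair arrays: deviations of arrays with the same number in different groups correlated at -0.0659 to 0.101 over 10 pairs. Alternatives were another normalisation, array weights, shared spread, complete probes, single spots, robust variances, 1 value per symbol, array set or replicate as a block, and leaving out each array.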

Additional observations from a re-analysis of the deposited data

Results flagged for a closer look

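Over the 24 named genes and 3 brain groups, 71 groups of values were examined, leaving out ssp for Crtam with its 3 values, and in 6 of them 1 array lay far from the rest, by Dixon's criterion for the number of values in the group; chance alone gives about 1 in 20 groups. Folr2 was -0.2366 on dom array 3, the nearest dom array being at 0.0452. Herc6 was 0.5341 on mus array 7 (nearest 0.1874), and Ndufa4 was -0.4591 on mus array 5 (nearest -0.1077). Wnk4 was 0.7911 on ssp array 5 (nearest 0.4439). Mfsd5 was 0.2304 on dom array 1 (nearest 0.03905), below every ssp array, and Hsd17b12 was 0.1705 on dom array 6 (nearest 0.02205). Mus arrays 5 and 7 and ssp array 5 belong to array set 2, the dom arrays to set 1.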

How the results depend on the processing

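Each of the 24 genes named for the main contrast kept its sign under every alternative run; the number of probes called did not hold. For ssp against the mean of dom and mus, 35 probes became 4 with quantile normalisation, 17 and 5 with the first or second spot of each pair alone, 22 with 1 value per symbol, 4 with the array set as a fixed block and 1 within set 1, and 6 to 55 with single arrays left out. Against dom, 22 became 9 with quantile normalisation, 35 without centring, 14 and 6 with single spots, 14 per symbol, 0 and 14 with the array set as a fixed or random block, 0 within set 1, and 8 (without dom array 13) to 83 (without dom array 1). Against mus, 22 became 0 with the second spot, 8 with the set as a fixed block, 3 and 0 within sets 1 and 2, and 1 (without mus array 4 or 7) to 72 (without mus array 5). Between mus and dom, 85 became 376 with quantile normalisation, 359 with array weights, 44 with all 24 brain arrays, 44 and 10 with single spots, 56 per symbol, 36 and 173 with the set as a block and within set 1, and 0 (without dom array 10 or 13) to 274 (without mus array 5). The tissue difference had 0, 1 with the first spot, and 0 to 1 with arrays left out. The cause of these changes was not tested. The replicate block, with animal number as a block though numbers do not pair arrays, gave 0 called probes in each brain comparison (limma; 2187 at an unadjusted p under 0.05 for the main contrast). Signal over background is not in the deposited values, so dim probes could not be set aside.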
